A study of Mus musculus with 8 samples.

Results

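The genes described here build the route by which proteins made in the cytosol enter mitochondria and are folded there. They were taken by symbol: every gene whose symbol starts with Tomm or Timm and a number, and Pam16, Dnajc19, Grpel1, Hspa9, Hspd1, Hspe1, Chchd4, Gfer, Pmpca, Pmpcb, Samm50, Mtx1, Mtx2 and Oxa1l, with pseudogene symbols left out. This gave 37 genes, all of them listed in both deposited tables, of 13384 genes listed in both. The rule used no measured value, but the genes and the lists set beside them were chosen with earlier results of these data known.

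The RNA came from bone-marrow-derived macrophages, which are macrophages grown from marrow progenitors, of female mice aged 12 weeks. The groups were NIK KO with IL-4, WT with IL-4, NIK KO with PBS and WT with PBS, each with 2 libraries, and the labels give the same mouse numbers for both treatments, so 2 mice stand behind each genotype. NIK (NF-κB-inducing kinase) starts noncanonical NF-κB signalling, and the series title concerns its part in mitochondrial respiration of innate immune cells. All cells were grown for 7 days with 30% medium conditioned by L929 fibroblasts, a source of M-CSF, and replated in 5% of it, and IL-4, a cytokine that drives alternative activation, was given at 20 ng/mL for 6 hours. The labels do not say how the NIK allele was made or whether it is missing only in some cells.

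The deposited data are 2 tables of per-gene results, 1 per treatment, each setting NIK KO over WT, with a base mean, a log2 fold change and its standard error (SE). They hold no value per library, so the depth of each library is unknown. Mean normalized counts of each group are given below as implied by the base mean and the fold change. The gene of NIK itself, Map3k14, stood at 832 mean normalized counts in libraries labelled NIK KO and 418 in WT with IL-4, and at 902 and 425 with PBS. The authors' deposited tables give Map3k14 0.99 ± 0.22 (SE) with IL-4, where DESeq2 called it (adjusted p = 0.00782). With PBS it was at 1.09 ± 0.28 and was not called (adjusted p = 0.176). Its RNA was thus higher under the knockout label. As the making of the allele is not stated, the label does not say whether this RNA should fall. Whether the allele or the direction of the tables accounts for the higher RNA was not tested. If the tables ran the other way, every sign and both group means below would be exchanged. The 10 macrophage markers examined summed to between 481211 and 652077 mean normalized counts in the 4 groups, most of it Lyz2. The other 9 summed to 162997 in NIK KO and 135728 in WT with IL-4, and 130918 and 125979 with PBS, and each was listed with a base mean of 288 or more. Adgre1 (F4/80) was at 0.54 ± 0.18 in the authors' deposited table with IL-4 (DESeq2 p = 0.0032, adjusted p = 0.672).

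Nearly all mitochondrial proteins are made in the cytosol with targeting signals. The TOM complex of the outer membrane takes them in, the SAM complex places barrel proteins in that membrane, and the MIA pathway traps small cysteine-rich proteins between the membranes by oxidation. Small TIM chaperones escort hydrophobic carriers to the TIM22 complex of the inner membrane, while the TIM23 complex with its PAM motor pulls presequence proteins into the matrix. There the processing peptidase cuts the presequence off and the chaperonin of Hspd1 and Hspe1 folds the protein. In macrophages this route supplies the respiratory chain and the enzymes of the citric acid cycle, whose use shifts with activation.

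Promoter sequences were matched for 33 of the 37 genes in RefSeq (GRCm38.p6). Shown here are the promoter that Hspd1 and Hspe1 share, because these neighbours on chromosome 1 encode the subunits of a single chaperonin, and the promoter of Tomm20, the gene whose estimate differed most between treatments. The Hspd1 and Hspe1 stretch is chr1:55087933-55088147 on the plus strand, from the base after an Hspd1 start, which is read to the left, to the base before the Hspe1 start. Capitals mark overlapping heat shock elements, the motif of the stress factor HSF1. The Tomm20 stretch is chr8:126945922-126946171 on the minus strand and ends at the base before the start. Its capitals mark a motif of NRF1, a transcription factor of nuclear genes for mitochondria.
Hspd1-Hspe1: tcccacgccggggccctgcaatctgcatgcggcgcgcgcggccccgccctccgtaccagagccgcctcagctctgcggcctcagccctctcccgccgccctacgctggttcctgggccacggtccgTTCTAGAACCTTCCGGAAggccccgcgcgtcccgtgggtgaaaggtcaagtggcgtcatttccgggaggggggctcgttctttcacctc
Tomm20: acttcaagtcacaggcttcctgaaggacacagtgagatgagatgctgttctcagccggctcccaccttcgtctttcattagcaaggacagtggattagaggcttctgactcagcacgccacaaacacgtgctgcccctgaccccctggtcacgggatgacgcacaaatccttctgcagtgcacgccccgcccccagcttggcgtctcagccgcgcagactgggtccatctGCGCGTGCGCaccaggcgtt

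Motifs were looked for on both strands from 250 bases before each start to 50 after it. The heat shock element, searched as TTC, GAA and TTC each set 2 bases apart, was found at 3 of 33 genes, Hspd1, Hspe1 and Timm9 (9.09%), and at 0.556% of 9899 genes of the tables with a promoter entry. Hspd1 and Hspe1 share the same element in the promoter shown, so these 3 genes hold 2 separate places, and there it overlaps the ETS motif. The NRF1 motif, searched as GCGC, any 1 base and TGCGC, was found at 6 of 33, Chchd4, Hspd1, Oxa1l, Pam16, Timm8b and Tomm20 (18.2%, against 11.5% of the 9899). A match at any promoter entry of a symbol counted. The Hspd1 match lies 59 to 50 bases before a start, and the stretch shown holds none, so it belongs to another Hspd1 start. The ETS motif CCGGAAG, which the factor GABP binds, was found at 15 of 33 (45.5%, against 20.1%). Hspd1 and Hspe1 are among these 15 and share the same ETS bases, so the genes outnumber the separate places. The motif TGATGNAAT of the stress factors ATF4 and CHOP was found at 0 of 33 and at 0.556% of the 9899. These matches are a description of letters and not of binding.

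With IL-4, no gene of the import route passed the test between genotypes, and more of the estimates lay below 0 than above it. The authors' deposited table gives 25 of 37 genes a fold change under 0, with a median of -0.09, where 51.1% of all genes lay under 0 and their median was -0.01. The estimates ran from -0.53 for Timm8a1 to 0.21 for Timm29 in the authors' deposited table, so the largest was a 1.44-fold difference. DESeq2 called 0 of the 37 at an adjusted p under 0.05, against 17 of 13642 genes (0.125%), and 0 had an unadjusted p under 0.05, against 2.95% of all genes. The adjusted p of every one of them was 1.00 in the authors' deposited table. The 95% intervals here and below use the deposited SE and a normal distribution. For the fold change this interval lay within a 2-fold difference either way for 35 of 37, the exceptions being Timm8a1 and Pam16. With 2 libraries a side, a t distribution with 2 degrees of freedom would give wider intervals, and the count under it was not taken. With the trend of fold change on transcript length subtracted, the median of the 37 was -0.04. Summed fibroblast markers were also lower with IL-4, at 211 mean normalized counts in libraries labelled NIK KO and 525 in WT, as were erythroid markers, at 158 and 344, and their part in the estimates was not tested. In bulk RNA, fewer cells of a type and less RNA per cell cannot be told apart.

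With PBS, no gene of the route passed either, and the estimates lay on both sides of 0. The authors' deposited table gives 16 of 37 genes a fold change under 0 with a median of 0.03, where 51.7% of all genes lay under 0 and their median was -0.01. The estimates ran from -0.36 for Mtx1 to 0.39 for Hspd1 in the authors' deposited table, a 1.31-fold difference at most. DESeq2 called 0 of the 37, against 5 of 13676 genes (0.0366%), and 0 had an unadjusted p under 0.05, against 1.24% of all genes, with an adjusted p of 1.00 for each of the 37. The normal 95% interval lay within a 2-fold difference for 34 of 37, the exceptions being Timm8a1, Timm8b and Pam16. The wider t interval was not computed here either, so these counts do not shut out a 2-fold difference. The median SE of the 37 was 0.22 with IL-4 and 0.29 with PBS on the log2 scale. At that SE an unadjusted p of 0.05 needs a fold change of 0.43 with IL-4 and 0.56 with PBS on the log2 scale.

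**Figure D1:**
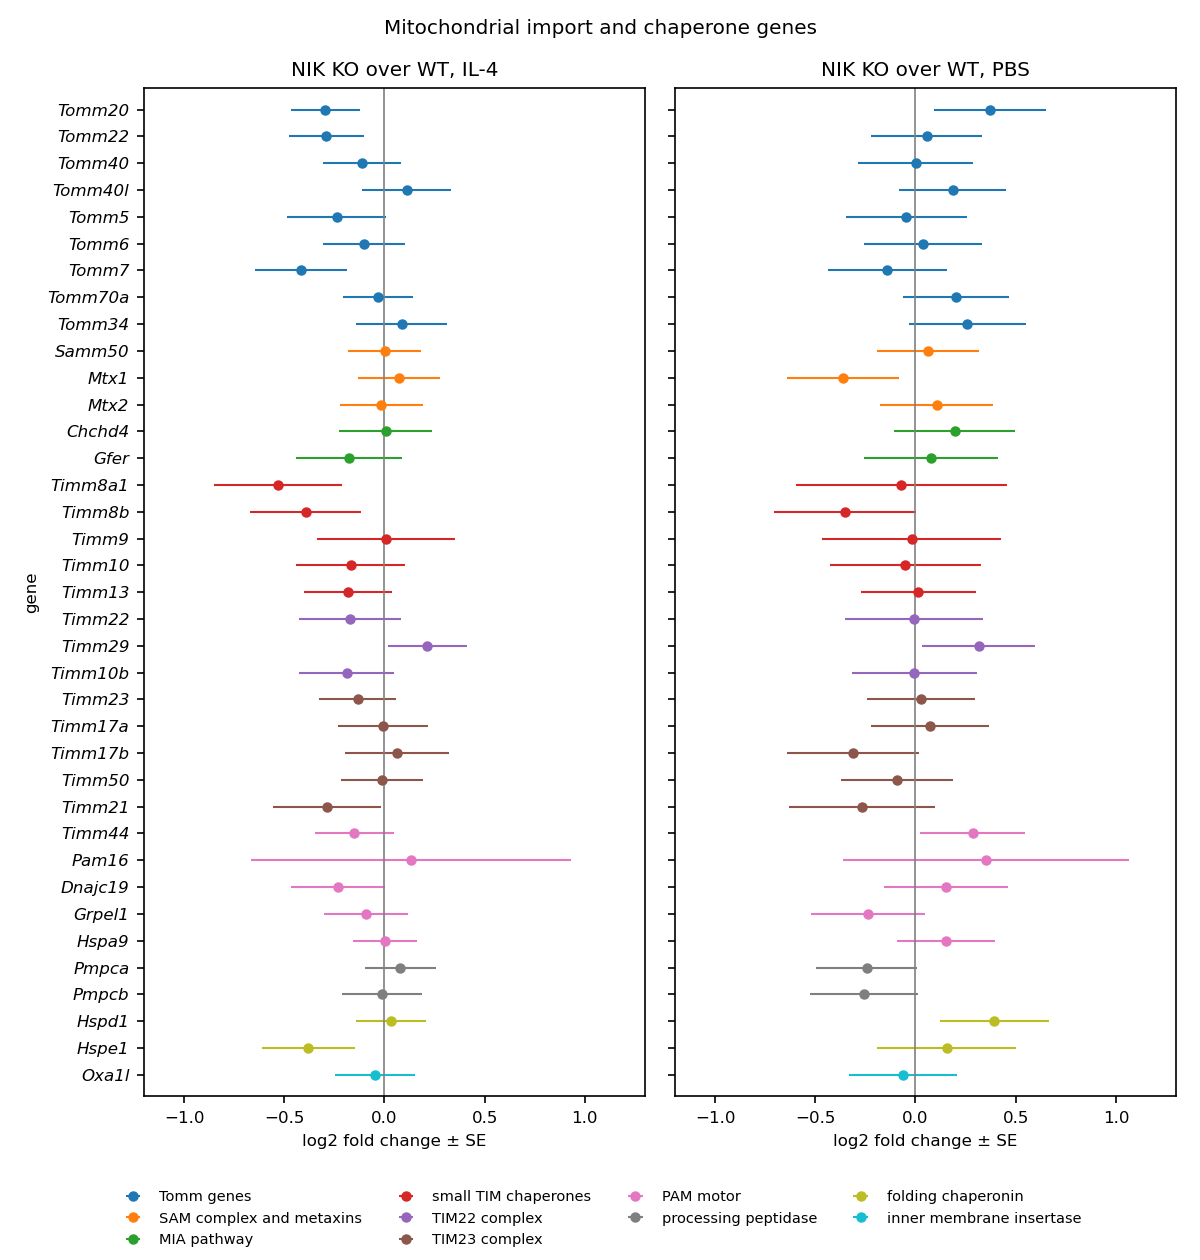
Log2 fold change of NIK KO over WT (x axis) with its standard error as bars for each of the 37 genes (y axis), with IL-4 on the left and with PBS on the right, coloured by the role of the protein. With IL-4 25 points lie left of 0 and with PBS 16 do, and the bars of most genes reach 0.

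The Tomm genes encode the entry gate. Tomm20, a receptor for presequences, had 2071 mean normalized counts in libraries labelled NIK KO and 2541 in WT with IL-4, and 2207 in NIK KO and 1705 in WT with PBS. The authors' deposited tables give it -0.30 ± 0.17 (SE) with IL-4 and 0.37 ± 0.28 with PBS, so its estimate was on opposite sides of 0 under the 2 treatments. Tomm22, the central receptor that docks both others to the pore, had 1324 in NIK KO and 1619 in WT with IL-4 (-0.29 ± 0.19 in the authors' deposited table), and 1287 and 1237 with PBS. Tomm7, a small subunit that tunes assembly of the complex, had 492 in NIK KO and 658 in WT with IL-4, at -0.42 ± 0.23 in the authors' deposited table (DESeq2 p = 0.0692, adjusted p = 1.00). It was the gene of the 37 with the smallest p in either table, and with PBS it stood at 564 in NIK KO and 621 in WT.

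The pore itself gave smaller estimates. Tomm40, the channel protein, had 1307 mean normalized counts in NIK KO and 1412 in WT with IL-4, and 923 and 922 with PBS. Its paralog Tomm40l had 909 in NIK KO and 842 in WT with IL-4, and 788 and 693 with PBS. The fold change of Tomm40 minus that of Tomm40l was -0.22 with IL-4 (95% interval -0.80 to 0.36) and -0.18 with PBS (-0.95 to 0.58), errors taken as independent. In the authors' deposited tables, Tomm5 and Tomm6, small subunits of the core, were at -0.24 ± 0.25 and -0.10 ± 0.20 with IL-4 and within 0.05 of 0 with PBS. Tomm70a, the receptor for carriers handed over by cytosolic chaperones, was at -0.03 ± 0.18 with IL-4 and 0.20 ± 0.26 with PBS in the authors' deposited tables. Tomm34, a cytosolic co-chaperone despite its name, was at 0.09 ± 0.23 with IL-4 and 0.26 ± 0.29 with PBS in the authors' deposited tables. Of these 9 Tomm genes, 7 lay under 0 with IL-4 and 2 with PBS.

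None of the genes of the SAM complex and its metaxins passed. Samm50, which inserts barrel proteins, had 3313 mean normalized counts in NIK KO and 3309 in WT with IL-4, and 2127 and 2037 with PBS, so its group means were nearly equal under both treatments. Mtx1, a metaxin, had 684 in NIK KO and 649 in WT with IL-4, and 440 and 566 with PBS, where the authors' deposited table puts it at -0.36 ± 0.28 (DESeq2 p = 0.197, adjusted p = 1.00). Mtx2, its partner, was at -0.02 ± 0.21 with IL-4 and 0.11 ± 0.28 with PBS in the authors' deposited tables.

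Of the MIA pathway, Chchd4 is the oxidoreductase that traps its clients and Gfer the sulfhydryl oxidase that recharges it. Chchd4 had 472 mean normalized counts in NIK KO and 470 in WT with IL-4, and 443 and 386 with PBS. Gfer had 343 in NIK KO and 388 in WT with IL-4, and 284 and 269 with PBS. The fold change of Chchd4 minus that of Gfer was 0.18 with IL-4 (95% interval -0.51 to 0.87) and 0.12 with PBS (-0.76 to 1.00), so the pair could not be told apart at this precision.

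The small TIM chaperones, clients of Chchd4 that carry hydrophobic proteins between the membranes, held the lowest estimate. Timm8a1 had 181 mean normalized counts in NIK KO and 262 in WT with IL-4, and 105 and 110 with PBS. The authors' deposited table puts it at -0.53 ± 0.32 with IL-4 (DESeq2 p = 0.0951, adjusted p = 1.00) and at -0.07 ± 0.52 with PBS. Timm8b had 278 in NIK KO and 365 in WT with IL-4, and 245 and 313 with PBS, an estimate on the same side under both treatments (-0.39 ± 0.28 and -0.35 ± 0.35 in the authors' deposited tables). With the trend of all genes on transcript length subtracted, Timm8b, of 518 bases, was at -0.12 and Timm8a1 at -0.43 with IL-4. Timm13, the partner of the Timm8 proteins, was at -0.18 ± 0.22 with IL-4 and 0.01 ± 0.29 with PBS in the authors' deposited tables. Timm9 and Timm10, which form the main ring, were at 0.01 ± 0.35 and -0.17 ± 0.27 with IL-4 and at -0.02 ± 0.45 and -0.05 ± 0.38 with PBS in the authors' deposited tables. These 5 genes have base means from 107 to 878 with PBS, and the SE of Timm9 and Timm8a1 is the widest of the 37 after that of Pam16.

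The TIM22 complex inserts the carriers into the inner membrane. Timm29, a subunit of metazoan TIM22, was above 0 in both tables, with 884 mean normalized counts in NIK KO and 762 in WT with IL-4, and 536 and 431 with PBS. The authors' deposited tables give it 0.21 ± 0.20 with IL-4 and 0.31 ± 0.28 with PBS (DESeq2 adjusted p = 1.00 in each). Timm22, the channel, and Timm10b, which docks the small TIM ring to it, were at -0.17 ± 0.26 and -0.19 ± 0.24 with IL-4 and within 0.01 of 0 with PBS in the authors' deposited tables.

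The TIM23 complex moves presequence proteins across the inner membrane, and none of its genes passed. Timm23, the channel-forming core, had 1815 mean normalized counts in NIK KO and 1992 in WT with IL-4, and 1397 and 1372 with PBS. Timm17a and Timm17b are alternative partners of Timm23. Timm17a had 872 in NIK KO and 875 in WT with IL-4, and 649 and 618 with PBS. Timm17b had 351 in NIK KO and 336 in WT with IL-4, and 292 and 363 with PBS. The fold change of Timm17a minus that of Timm17b was -0.07 with IL-4 (95% interval -0.74 to 0.61) and 0.38 with PBS (-0.48 to 1.25). Timm50, the receptor for presequences, was at -0.01 ± 0.20 and -0.09 ± 0.28, and Timm21, which links TIM23 to the respiratory chain, at -0.28 ± 0.27 and -0.27 ± 0.37, with IL-4 and with PBS in the authors' deposited tables.

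In the PAM motor, Hspa9, the matrix HSP70 that pulls precursors in, was the most abundant transcript of the 37 by base mean. It had 5299 mean normalized counts in NIK KO and 5288 in WT with IL-4, and 3188 and 2869 with PBS. The authors' deposited table gives it 0.00 ± 0.16 with IL-4, the smallest SE of the 37, with a 95% interval of -0.31 to 0.32. Timm44, which tethers Hspa9 to the channel, had 881 in NIK KO and 977 in WT with IL-4, and 766 and 629 with PBS (-0.15 ± 0.20 and 0.29 ± 0.26 in the authors' deposited tables). Dnajc19, a J protein of the motor, was at -0.23 ± 0.23 with IL-4 and 0.15 ± 0.31 with PBS, and Grpel1, the nucleotide exchange factor, at -0.09 ± 0.21 and -0.24 ± 0.28, in the authors' deposited tables. Pam16, the J-like regulator, was at 0.13 ± 0.80 with IL-4 and 0.35 ± 0.71 with PBS in the authors' deposited tables, on a base mean of 31.6 and 40.4.

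Downstream of the channel, Pmpca and Pmpcb encode the α and β subunits of the processing peptidase, and their estimates lay close together. With PBS, Pmpca had 1181 mean normalized counts in NIK KO and 1398 in WT, and Pmpcb had 559 in NIK KO and 668 in WT. The authors' deposited table puts them at -0.24 ± 0.25 and -0.26 ± 0.27 with PBS, neither of which passed. With IL-4, Pmpca had 1605 in NIK KO and 1519 in WT, and Pmpcb had 762 in NIK KO and 769 in WT. The fold change of Pmpca minus that of Pmpcb was 0.09 with IL-4 (95% interval -0.43 to 0.62) and 0.01 with PBS (-0.71 to 0.74). Oxa1l, which inserts proteins into the inner membrane from the matrix side, was at -0.05 ± 0.20 with IL-4 and -0.06 ± 0.27 with PBS in the authors' deposited tables.

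The chaperonin genes Hspd1 (HSP60) and Hspe1 (HSP10), which share the promoter shown above, gave unlike estimates with IL-4. Hspe1 had 1089 mean normalized counts in NIK KO and 1417 in WT with IL-4, and 999 and 897 with PBS (-0.38 ± 0.23 and 0.15 ± 0.35 in the authors' deposited tables). Hspd1 had 3079 in NIK KO and 3013 in WT with IL-4, and 2082 and 1585 with PBS (0.03 ± 0.18 and 0.39 ± 0.27 in the authors' deposited tables). Neither gene passed in either table (DESeq2 p from 0.103 to 0.859, adjusted p = 1.00). The fold change of Hspe1 minus that of Hspd1 was -0.41 with IL-4 (95% interval -0.98 to 0.16) and -0.24 with PBS (-1.10 to 0.63), so a difference between the partners was within the error. With the trend of all genes on transcript length subtracted, Hspe1, of 774 bases, was at -0.17 and Hspd1 at 0.04 with IL-4. In the GRCm38 annotation their exons overlap by 112 bases on opposite strands, and the sources do not say whether the counting used strand.

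**Figure D2:**
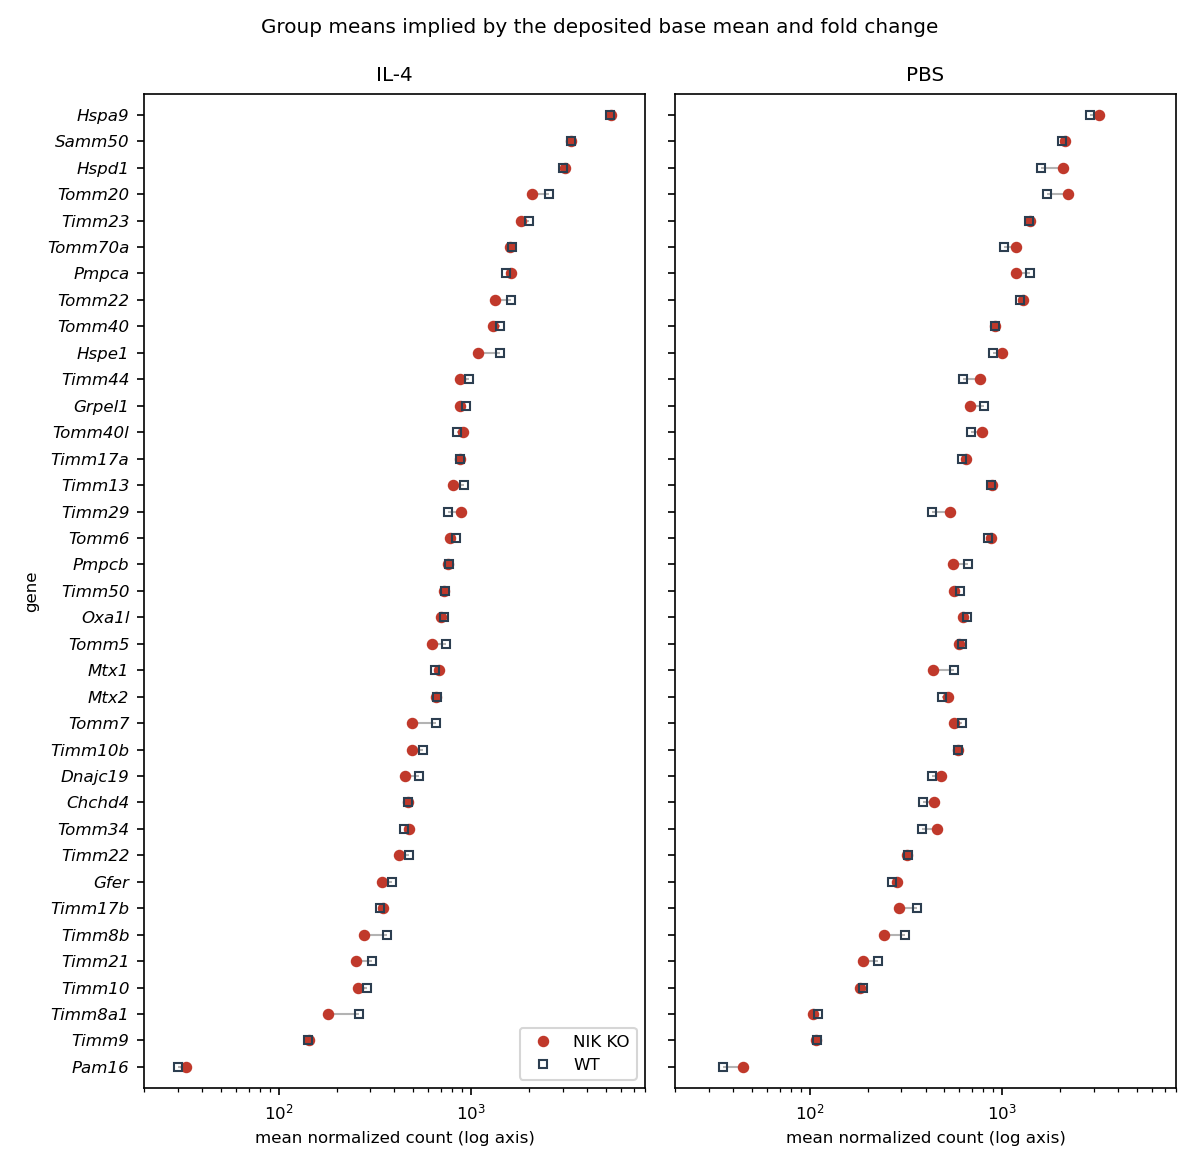
Mean normalized count of each gene (x axis, log scale) in libraries labelled NIK KO (filled circles) and WT (open squares), with IL-4 on the left and PBS on the right, ordered by base mean with IL-4. The points of a gene lie close together against the range between genes, which runs from Pam16, at 33.0 in NIK KO and 30.1 in WT with IL-4, to Hspa9, at 5299 and 5288.

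The NIK KO effect was then compared between treatments, as the fold change with IL-4 minus that with PBS, by a two-sided z test on the deposited fold changes and SEs. Both effects rest on the same mice, but their errors were treated as independent. Of the 37 genes 29 had a lower fold change with IL-4 than with PBS, with a median difference of -0.15, where 50.2% of 13384 genes had a lower one and their median was -0.00179. None passed (0 of 37 at an adjusted p under 0.05, against 2 of 13384 or 0.0149%), and 1 had an unadjusted p under 0.05, against 0.867% of all genes. This was Tomm20, with a difference of -0.67 ± 0.33 and a 95% interval of -1.31 to -0.02. Its adjusted p was 1.00, with Benjamini-Hochberg adjustment over 13384 genes. Hspe1 came next in size at -0.53 ± 0.42, then Timm8a1 at -0.46 ± 0.61 and Timm44 at -0.43 ± 0.33. On the other side Mtx1 stood at 0.44 ± 0.35, Timm17b at 0.37 ± 0.42, Pmpca at 0.32 ± 0.31 and Pmpcb at 0.24 ± 0.34. All 9 Tomm genes lay under 0 in this difference and both peptidase genes above it. With the trend of the difference on transcript length subtracted, 3 of 37 genes changed sign. They were Timm10, Timm8b and Tomm6, which moved above 0, so not every Tomm gene then lay under 0. The estimates changed side between the tables for 17 of 37 genes, 13 of them under 0 with IL-4 and above 0 with PBS.

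**Figure D3:**
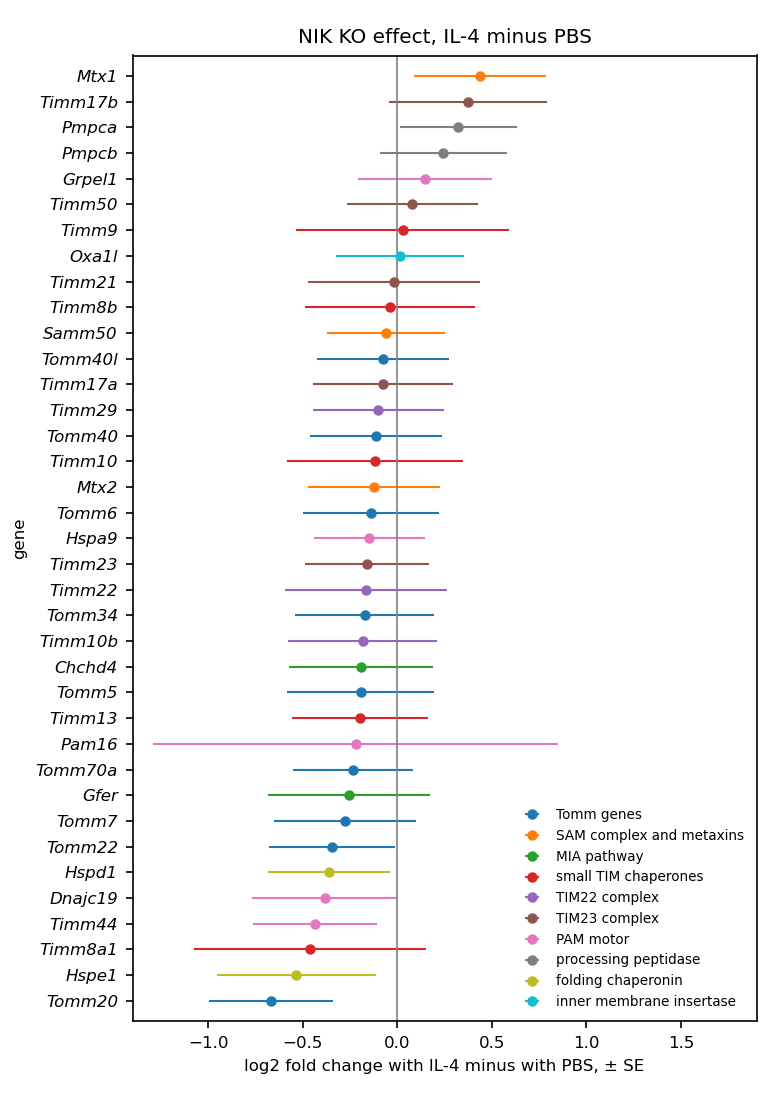
Difference of the log2 fold change of NIK KO over WT, IL-4 minus PBS (x axis), with its standard error as bars, for the 37 genes in order of size. Tomm20 lies lowest at -0.67 and Mtx1 highest at 0.44, and 29 of 37 points lie left of 0.

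Levels with IL-4 and with PBS come from tables that were normalized separately, so they are described without a test, relative to the median shift of 9148 genes with a base mean of 100 or more in both tables. That shift was 0.28 in NIK KO and 0.26 in WT on the log2 scale. Above it stood 19 of 37 genes in NIK KO and 23 in WT. Hspa9 was 0.46 above the shift in NIK KO and 0.62 in WT, Hspd1 0.29 and 0.66, Samm50 0.36 and 0.43, and Timm29 0.45 and 0.56. Timm8a1 was furthest above it, by 0.52 in NIK KO and 0.99 in WT. Below it stood Pam16 at -0.73 in NIK KO and -0.50 in WT, Timm10b at -0.52 and -0.32, and Tomm6 at -0.45 and -0.30. Tomm20 lay at -0.37 in NIK KO and 0.31 in WT, and Hspe1 at -0.15 and 0.39, on opposite sides of the shift in the genotypes. Other genes did so too, among them Tomm22 at -0.23 in NIK KO and 0.12 in WT and, the other way round, Mtx1 at 0.36 and -0.07. Apart from the shifts, the gap between genotypes in these values restates the difference between treatments given above and is no further observation.

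Levels were compared between genes per kilobase of the longest coding transcript, for the 24 genes whose longest and median coding transcripts differ in length by at most 1.5 times. With IL-4, Hspe1 and Hspa9 led among these 24, at 1407 and 1738 mean normalized counts per kilobase in NIK KO and 1830 and 1734 in WT. Timm23, left out by a length ratio of 1.51, had 1547 in NIK KO and 1698 in WT, above Hspe1 in NIK KO. Hspd1, also left out, had 1271 and 1244. The small TOM subunits Tomm6 and Tomm5 had 1032 and 846 per kilobase in NIK KO and 1108 and 998 in WT, near the receptor Tomm22 at 844 in NIK KO and 1032 in WT and the pore gene Tomm40 at 794 and 858. Tomm70a, a further receptor, was at 266 per kilobase in NIK KO and 272 in WT. Chchd4 stood at 136 in NIK KO and 135 in WT, and Timm21 at 104 and 127, with Pam16 lowest at 55.4 and 50.5. The tables give no error for a level, so whether neighbours in this order differ beyond their spread was not tested.

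The fold change with IL-4 went with transcript length across all genes, and many import genes are short. Among genes with a base mean of 100 or more, the authors' deposited table gives the shortest of 5 length classes a median of -0.13 with IL-4 and the longest 0.14, against -0.03 and 0.02 with PBS. With IL-4, 36 of the 37 genes reach that base mean, all but Pam16. The shortest class holds 16 of these 36, with a median of -0.17 in the authors' deposited table. Across the 37 genes, Spearman's rho between length and fold change was 0.37 with IL-4 and 0.31 with PBS, a description over genes that share their libraries. With the trend of all genes subtracted, 24 of 37 lay under 0 with IL-4, 21 of them among the 25 under 0 before and 3 not, and the median was -0.04. Tomm20, with a longest transcript of 4902 bases, was then at -0.38 with IL-4, the 1 gene of 37 with an unadjusted p under 0.05, and 0 passed adjustment. This rests on the length chosen: the median coding transcript of Tomm20 has 2680 bases, and with a trend on that length, an alternative chosen after seeing the data, Tomm20 was at -0.34 and 0 of 37 had an unadjusted p under 0.05 with IL-4.

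**Figure D4:**
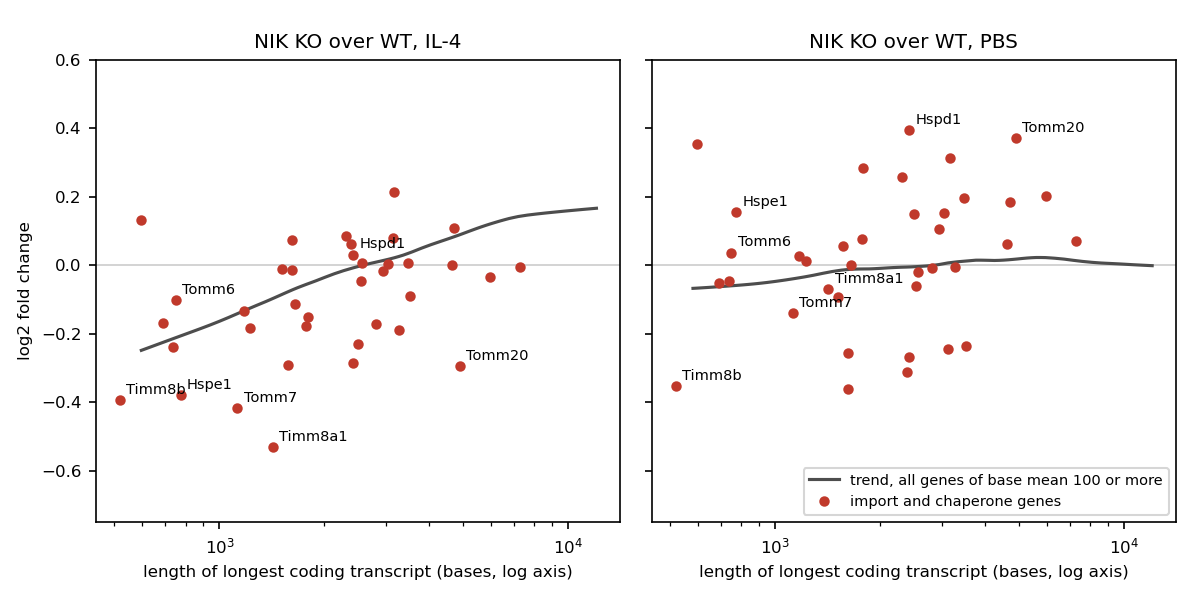
Log2 fold change of NIK KO over WT (y axis) against the length of the longest coding transcript (x axis, log scale) for the 37 genes (points), with IL-4 on the left and PBS on the right. The line is the smooth trend over all genes with a base mean of 100 or more, which climbs with length in IL-4, and Tomm20 lies well under it there.

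Some of the genes share sequence with other genes, so reads could be split between them. By words of 31 bases in the GENCODE M21 transcripts, Timm23 shares 92.7% of its words, Pam16 89.0%, Tomm6 87.1% and Hspd1 55.8%, while Hspe1 shares 48.1% and Timm8a1 41.8%. The copy of Pam16, Gm9803, has the higher base mean, 94.9 against 31.6 with IL-4 in the authors' deposited table. Pam16 and Gm9803 summed to 110 mean normalized counts in NIK KO and 143 in WT with IL-4, and 112 and 160 with PBS, log2 ratios of -0.37 and -0.52, where Pam16 alone was above 0. Timm8a1 and its copy Gm9797 summed to 251 in NIK KO and 350 in WT with IL-4 (log2 ratio -0.48), and 148 and 141 with PBS (0.07). Adding the gene that shares most words with Tomm6, Hspd1 or Hspe1 left their log2 ratios within 0.02 of the single-gene estimates.

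Lists of neighbouring genes were read beside these, and of all genes 51.1% lay under 0 with IL-4 and 51.7% with PBS, while 2.95% and 1.24% had an unadjusted p under 0.05 and 0.125% and 0.0366% were called. Of 22 further import genes (assembly factors, presequence peptidases, cristae proteins and porins), 14 lay under 0 with IL-4 (median -0.07) and 10 with PBS (0.02), and 0 were called in each table by DESeq2 (0 at an unadjusted p under 0.05 in each). Immp1l, an inner membrane peptidase, had 219 mean normalized counts in NIK KO and 288 in WT with IL-4, and Xpnpep3, an aminopeptidase, 218 and 154. With PBS, Xpnpep3 had 159 in NIK KO and 108 in WT, and Apool, a cristae protein, 221 and 285. Of 20 proteins with paired cysteine motifs that enter through Chchd4 or are kept by it between the membranes, 18 lay under 0 with IL-4 (median -0.24) and 13 with PBS (-0.10), again with 0 called, and 2 had an unadjusted p under 0.05 with IL-4 and 0 with PBS. These genes are short, with a median length of 991 bases, and with the length trend subtracted 13 of 20 lay under 0 with IL-4 with a median of -0.03. The 2 with an unadjusted p under 0.05 with IL-4 were Cox17, a copper chaperone, and Ndufb10, a complex I subunit. Cox17 was at -0.59 ± 0.24 (500 in NIK KO and 752 in WT) and Ndufb10 at -0.39 ± 0.19 (924 and 1210) in the authors' deposited table. With PBS the largest statistics of that list were those of Ndufa8 at -0.23 ± 0.27 and Cmc1 at -0.36 ± 0.44 in the authors' deposited table.

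Chaperones and proteases of the matrix and inner membrane gave 12 of 20 under 0 with IL-4 (median -0.03) and 15 with PBS (-0.10), with 0 called and 0 at an unadjusted p under 0.05 in either. Hscb, a co-chaperone of iron-sulfur assembly, was at -0.53 ± 0.29 and Parl, a rhomboid protease, at -0.34 ± 0.19 with IL-4 in the authors' deposited table. With PBS the largest statistics of that list were those of Parl at 0.22 ± 0.26 and Clpb, a disaggregase, at -0.26 ± 0.32 in the authors' deposited table. Cytosolic chaperones and heat shock genes gave 7 of 18 under 0 with IL-4 (median 0.05) and 7 with PBS (0.10), with 0 called and 2 at an unadjusted p under 0.05 with IL-4. Hspb1, a small heat shock protein, had 12.0 in NIK KO and 45.9 in WT with IL-4 (-1.93 ± 0.75 in the authors' deposited table), and Dnaja2, a J protein that serves HSP70, had 3535 in NIK KO and 2735 in WT (0.37 ± 0.19 in the authors' deposited table). Bag3 and Hsph1, co-chaperones of HSP70, led with PBS at 0.27 ± 0.26 and 0.27 ± 0.27 in the authors' deposited table. Among 12 transcription factors and coactivators of mitochondrial genes or stress, 6 lay under 0 with IL-4 (median 0.00) and 2 with PBS (0.16), with 0 called and 0 at an unadjusted p under 0.05 in either. Nrf1, whose motif is shown above, was at 0.25 ± 0.23 and Gabpb1, a GABP subunit, at 0.24 ± 0.26 with IL-4 in the authors' deposited table. With PBS, Pprc1, a coactivator, was at 0.30 ± 0.32 and Tfam, a packaging factor of mitochondrial DNA, at 0.35 ± 0.32 in the authors' deposited table.

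**Figure D5:**
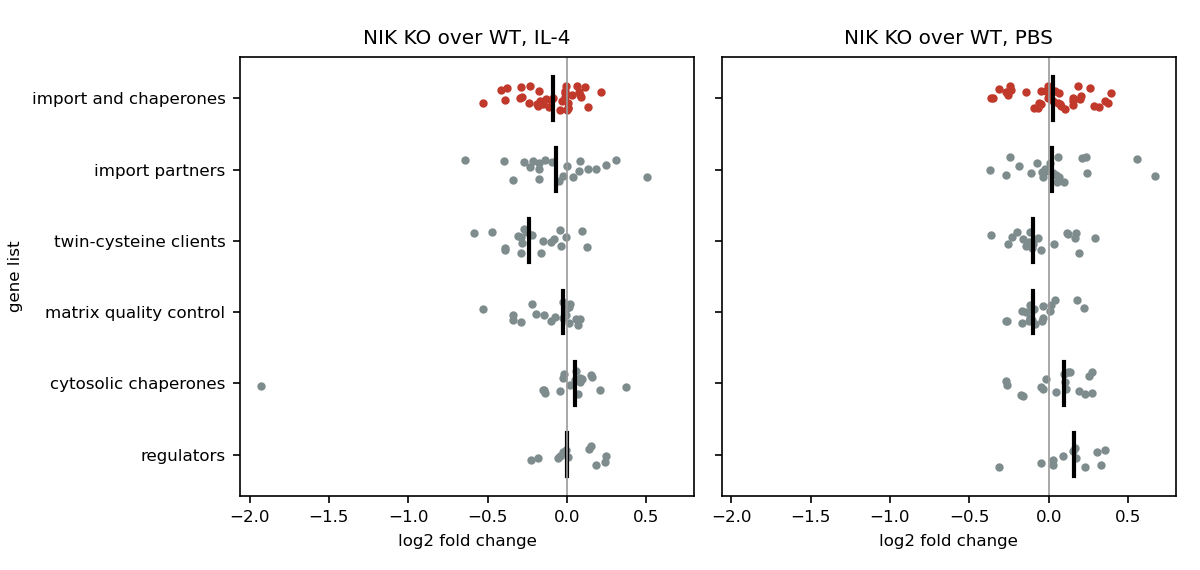
Log2 fold change of NIK KO over WT (x axis) for each gene (points) of the 37 import and chaperone genes and of 5 neighbouring lists (y axis), with IL-4 on the left and PBS on the right. Vertical bars are medians, which lie lowest for the twin-cysteine clients with IL-4, at -0.24 before and -0.03 after the length trend is subtracted (not drawn), and the point at -1.93 is Hspb1.

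Of the markers of other cells, DESeq2 called only fibroblast genes, and only with IL-4. The fibroblast markers summed to 211 mean normalized counts in NIK KO and 525 in WT with IL-4 (11 of 12 listed, 9 of them under 0), and to 138 and 139 with PBS (9 of 12). The genes called were 2, Col3a1 and Col5a1, both lower in NIK KO, and Col1a1, Col1a2 and Dcn had an unadjusted p under 0.05. The erythroid markers summed to 158 in NIK KO and 344 in WT with IL-4, and to 103 and 96.1 with PBS, and 4 of 6 had an unadjusted p under 0.05 with IL-4 (Hba-a1, Hba-a2, Hbb-bs and Hbb-bt). None of the erythroid genes was called. Neutrophil markers summed to 213 in NIK KO and 292 in WT with IL-4, and to 205 and 236 with PBS, with S100a8 at an unadjusted p under 0.05 with IL-4, and dendritic markers to 113 and 129, and 76.5 and 74.2. B cell markers summed to 17.97 in NIK KO and 44.5 in WT with IL-4, and 7.42 and 7.11 with PBS, and T cell markers to 41.7 and 34.0, and 36.3 and 32.5. None of the neutrophil, dendritic, B cell and T cell genes was called, and of the last 3 lists 0 had an unadjusted p under 0.05 in either table.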

How the data were processed

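Macrophage RNA of 8 libraries in 4 groups was read from 2 deposited tables, 1 per treatment, of 4 libraries each. The submitters' processing notes name GRCm39, Salmon 1.4.0 and, as the tool the authors used for the deposited statistics by its column names, DESeq2 1.32.0. Neither the annotation nor a filter is named there. The columns the authors deposited are, per the file headers, a base mean (a signal, counts over size factors), a log2 fold change with its standard error on the log2 scale, a Wald statistic (a score), a p-value and an adjusted p-value. The statistic equals the log2 fold change over its standard error to within 1.44e-07, and Benjamini-Hochberg adjustment gave back the deposited adjusted p-values to within 3.20e-05. The adjusted p is blank for 551 genes of the IL-4 table, which were left so. The order of the genotypes in the IL-4 table's name gave the direction for both tables, and the 3 genes called in both tables have the same sign in each.

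The genes and lists were chosen with earlier results of these data known. Genes were called at a deposited adjusted p under 0.05. All 37 are named. Fuller values go to genes with an unadjusted p under 0.05, the 6 largest statistics of each table and 5 partner pairs. In other lists, genes with an unadjusted p under 0.05, or else those with the largest statistics, are named. Where a marker symbol had more than 1 row, the row of higher base mean was kept. Group means were computed from base mean and fold change for groups of equal size, which is exact only where the fitted ratio equals the ratio of means. The z test is described with its result. Transcript lengths, shared words and exon overlaps came from GENCODE M21 (GRCm38) and promoters from RefSeq (GRCm38.p6), not the authors' build. The length trend was a lowess fit with a span of 0.3. The steps were tested on simulated data with the deposited standard errors. Python 3.11.15, numpy 2.4.6, pandas 2.3.3, scipy 1.17.1, statsmodels 0.14.6 and matplotlib 3.10.9 were used. The labels tell the mice of a genotype apart by their numbers only. Each deposited p-value rests on 2 libraries a side, and no value per library is given. The spread between mice can therefore not be shown for any gene.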

Additional observations from a re-analysis of the deposited data

How the results depend on the processing

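The count of 0 called among the 37 genes was the same in the IL-4 table, the PBS table and the difference under each alternative run: adjustment over genes of base mean 10 or more or 100 or more, subtraction of the median or of the trend on the longest or the median coding transcript, a t distribution with 2 degrees of freedom (4 for the difference) and a threshold of 0.1. The t distribution called 0 of all genes too, so it says nothing of these. The smallest DESeq2 adjusted p of the 37 was 0.999963 with IL-4 and 0.999994 with PBS. A threshold of 0.1 or adjustment over fewer genes therefore left little room for a call. The genes under 0 numbered 23 to 29 with IL-4 and 13 to 16 with PBS over these and 3 alternatives that left genes out (base mean under 100, over 50% shared words, or Tomm34, Hspd1, Hspe1 and Hspa9), and the medians ran from -0.10 to -0.04 and from 0.00 to 0.05. These counts have unlike totals: with IL-4 the 23 is of 33 genes, without those of over 50% shared words, and the 29 is of 37, with the median subtracted. Several single estimates changed sign. With the median subtracted, Chchd4, Hspa9, Samm50 and Timm9 moved to -0.0067, -0.0093, -0.011 and -0.0046 with IL-4. With the length trend subtracted, Chchd4, Hspa9 and Samm50 moved to -0.029, -0.015 and -0.079 with IL-4, and Pmpcb, Timm10, Timm50 and Tomm6 to 0.059, 0.056, 0.073 and 0.11, the last a move of over 1 SE. That setting also moved Timm10 and Tomm5 to 0.011 and 0.014 with PBS, and in the difference Timm10, Timm8b and Tomm6 to 0.053, 0.17 and 0.020. With a trend on the median coding transcript length, chosen after seeing the data, Chchd4, Hspa9, Samm50, Pmpcb, Timm17a and Timm50 moved to -0.055, -0.045, -0.095, 0.043, 0.080 and 0.019 with IL-4, Timm10b, Timm22 and Timm9 to 0.016, 0.022 and 0.0088 with PBS, and Timm8b to 0.045 in the difference. No paired analysis was possible because the tables hold no value per library, and leaving out each mouse was not run for the same reason. With 2 mice a side, a gene of median SE needed a difference of 0.43 with IL-4 and 0.56 with PBS on the log2 scale for an unadjusted p of 0.05.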
